A study of Mus musculus with 6 samples.

Results

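The genes described here encode 10 enzymes and partner proteins of eicosanoid synthesis, chosen by name and found by symbol among the 55471 genes of the expression table. Of these, 5 belong to the cyclooxygenase arm (Ptgs1, Ptgs2, Hpgds, Ptges and Tbxas1), 4 to the 5-lipoxygenase arm (Alox5, Alox5ap, Ltc4s and Lta4h), and Pla2g4a supplies both. All 10 were matched and all 10 passed the filter on low values, a mean of at least 10 normalized counts. RNA was sequenced from thymic tuft cells of mice, sorted on the surface protein L1CAM into SMART-seq lysis buffer. All mice carried floxed alleles of Ikzf1, the gene of the transcription factor Ikaros. The 3 control samples were negative for Foxn1-Cre and labelled WT, and the 3 other samples were positive for it and labelled KO. Foxn1 is active across thymic epithelium, so the recombinase is not restricted to tuft cells. The labels used here give neither strain, sex nor age, and do not say whether each sample came from 1 animal, so that p-values reflect only how much these libraries vary, some of which may be technical. In the expression table the libraries carry the names Het (1 to 3) and Ko (1 to 3). Ko was read as the Cre-positive group and Het, by elimination, as the Cre-negative group. Values of single libraries are given in the order of those numbers.

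Eicosanoids are short-lived lipid signals made from arachidonic acid, which phospholipase A2 frees from membranes. Cyclooxygenases turn it into prostaglandin H2, from which separate synthases make prostaglandin D2, prostaglandin E2 and thromboxane. 5-lipoxygenase, helped by its membrane partner FLAP, turns it into leukotriene A4, which becomes leukotriene B4 or the cysteinyl leukotriene C4. Tuft cells of the mouse gut and airway are known to release prostaglandin D2 and cysteinyl leukotrienes.

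Libraries held 12238428 to 31435787 reads, recovered from the deposited values. All 12 tuft cell markers examined passed the filter, with summed normalized counts of 107720 to 154320 in libraries labelled Het and 130340 to 150510 in those labelled Ko. The targeted gene went against its label: Ikzf1 stood at 301, 187 and 273 normalized counts (Het) against 1572, 1463 and 1717.5 (Ko). Which part was floxed is not in the labels, and reads summed over a gene cannot tell whether that part was missing, so each direction below is between libraries as labelled. Over all 19416 genes tested, limma called 158 (0.814%), 56 higher and 102 lower in the libraries labelled Ko at an adjusted p under 0.05, with 37 and 127 under TMM factors from every gene and 12 and 66 after scaling to tuft markers. Leaving out 1 library gave 14 calls without Het2, 0 without Het3 (with 2080 at an unadjusted p under 0.05), 56 without Ko2 and 50 without Ko3.

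Of the 10 genes, 1 was called higher in the libraries labelled Ko and 0 lower (limma, Benjamini-Hochberg over all genes tested), where 0.288% of all tested genes were called higher and 0.525% lower. The called gene was Ptgs1 in the cyclooxygenase arm; no gene of the 5-lipoxygenase arm was called. In 4 of the 10 (Ptgs1, Hpgds, Ltc4s and Pla2g4a) every library labelled Ko lay above every library labelled Het, where this held for 8.57% of all tested genes. In 0 of the 10 the reverse held, against 9.86% of all tested genes, and 18.4% did not overlap in either direction. The median log2 fold change of the 10 was 0.46, with 7 positive and 3 negative. Over all genes tested the median was -0.05, with 9159 positive and 10257 negative. The 12 tuft cell markers also leaned upward, with a median of 0.24, 10 positive and 2 negative, and 0 called. At an unadjusted limma p under 0.05 stood 5 of the 10 and 13.6% of all tested genes. After scaling to tuft markers 1 of the 10 stood there, as did 2397 of all 19416 tested genes.

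The count of calls depended on the tool. DESeq2 on the recovered reads called Ptgs1 and Hpgds higher and 0 of the 10 lower, where it called 8.37% of genes, 3.09% higher and 5.28% lower. edgeR's quasi-likelihood test called 0 of the 10, with 5 at its unadjusted p under 0.05, as had 2725 of all 19416 tested genes. It called 0.386% of genes, 0.124% higher and 0.263% lower. The authors' deposited table has Ptgs1 and Hpgds as higher and 0 of the 10 as lower, among 8.19% of its genes with an adjusted p under 0.05, 3.03% higher and 5.16% lower.

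RefSeq promoter windows were found on GRCm38.p6, while the authors used GRCm39, for 9 of the 10 genes, each with 250 bases before and 50 after an annotated start. Those of Ptgs1 and Hpgds, the genes called by DESeq2, are shown beside Alox5 and Ltc4s of the other arm. The windows are chr2:36230176-36230475 on the plus strand for Ptgs1, and on the minus strand chr6:65144681-65144980 for Hpgds, chr6:116461129-116461428 for Alox5 and chr11:50238483-50238782 for Ltc4s. Capitals mark GGGAA or its reverse complement TTCCC, the core motif bound by Ikaros, and the octamer ATGCAAAT or ATTTGCAT, a motif bound by POU proteins, the family of the tuft cell factor Pou2f3.
Ptgs1: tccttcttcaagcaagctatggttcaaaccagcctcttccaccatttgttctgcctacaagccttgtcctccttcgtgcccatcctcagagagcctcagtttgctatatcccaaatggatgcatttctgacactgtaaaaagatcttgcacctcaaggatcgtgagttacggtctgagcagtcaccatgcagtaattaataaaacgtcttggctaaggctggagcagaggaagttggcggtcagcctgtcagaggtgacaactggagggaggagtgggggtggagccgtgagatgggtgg
Hpgds: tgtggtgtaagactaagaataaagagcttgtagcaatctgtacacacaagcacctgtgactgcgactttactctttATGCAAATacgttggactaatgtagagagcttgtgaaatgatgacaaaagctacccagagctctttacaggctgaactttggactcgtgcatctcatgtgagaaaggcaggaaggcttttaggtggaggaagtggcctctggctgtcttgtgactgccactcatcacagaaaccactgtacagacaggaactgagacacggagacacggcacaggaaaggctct
Alox5: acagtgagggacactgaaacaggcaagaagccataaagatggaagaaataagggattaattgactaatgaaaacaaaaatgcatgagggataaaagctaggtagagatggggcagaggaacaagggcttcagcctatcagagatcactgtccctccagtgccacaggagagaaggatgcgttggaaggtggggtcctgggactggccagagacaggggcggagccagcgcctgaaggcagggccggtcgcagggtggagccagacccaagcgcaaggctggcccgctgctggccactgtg
Ltc4s: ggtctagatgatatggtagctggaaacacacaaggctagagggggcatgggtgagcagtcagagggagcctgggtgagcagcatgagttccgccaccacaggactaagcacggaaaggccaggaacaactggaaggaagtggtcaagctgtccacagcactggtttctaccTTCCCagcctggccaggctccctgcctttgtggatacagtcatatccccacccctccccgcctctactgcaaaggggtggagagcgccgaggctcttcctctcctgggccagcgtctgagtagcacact
The octamer occurred in the Hpgds window, beginning 174 bases before the start, and in no other window of the 9 genes; 1.74% of the 32851 windows of the table hold it. GGGAA or TTCCC was in the Ltc4s window and not in those of Ptgs1, Hpgds or Alox5, while 62.7% of all windows hold it. Of the windows not shown, those of Ptgs2, Ptges, Tbxas1 and Lta4h hold it too, and those of Pla2g4a do not. Neither motif overlapped the other. These are matches of letters in short windows and say nothing of binding.

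**Figure D1:**
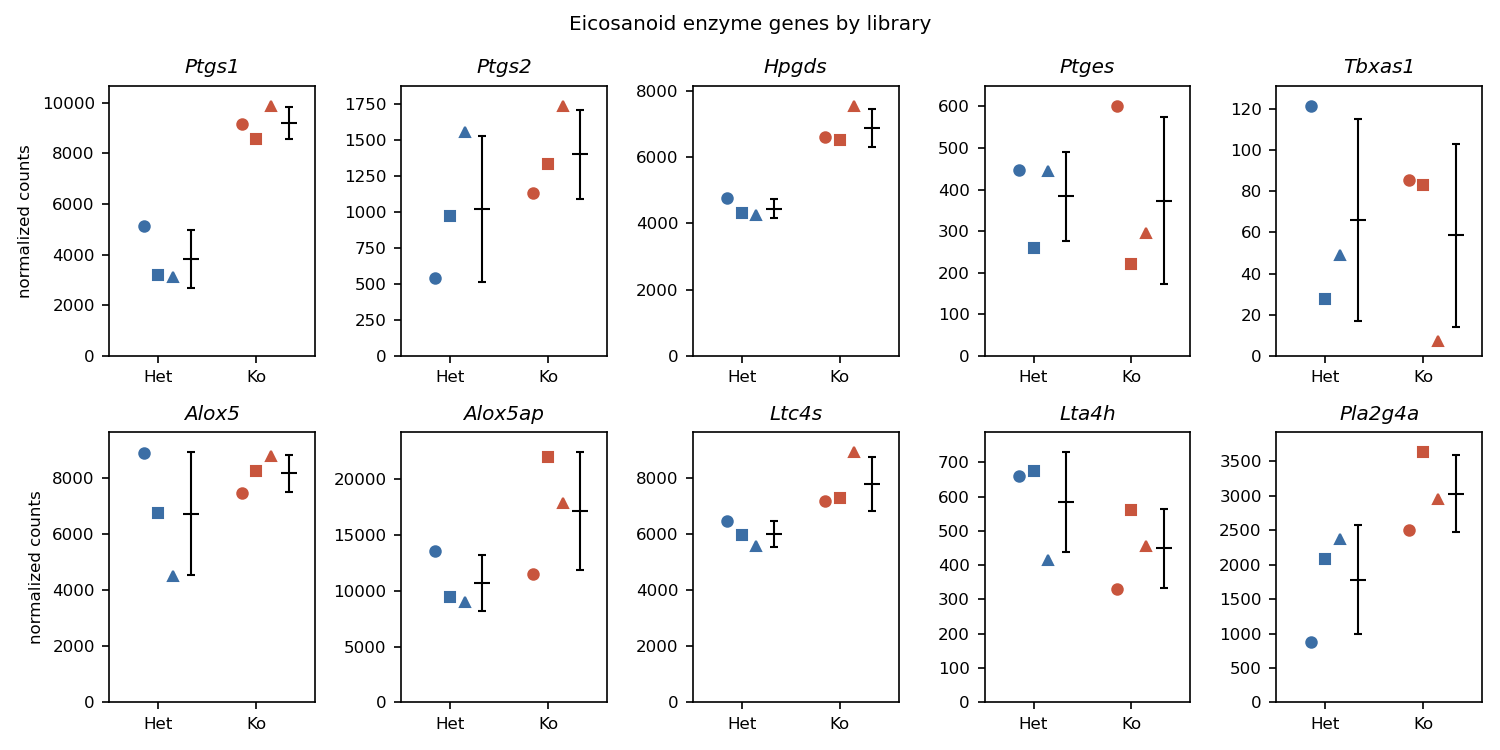
Normalized counts (y axis, from 0) of each of the 10 genes in libraries labelled Het (blue) and Ko (red); each point is a library, its shape the column number (circle 1, square 2, triangle 3), and the bar the mean and SD of 3. Ptgs1 in the libraries labelled Ko sits between 8585 and 9872, above all 3 labelled Het. The groups of Ptgs2, Ptges, Tbxas1, Alox5, Alox5ap and Lta4h overlap.

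The cyclooxygenase genes differed among themselves. Ptgs1, which encodes the constitutive cyclooxygenase-1, was at 5139, 3196 and 3105 normalized counts (Het) against 9152, 8585 and 9872 (Ko). The libraries labelled Ko were all higher, and Het1 was the highest of the libraries labelled Het. The group means were 3813 ± 1149 and 9203 ± 645 (SD, n = 3 each), a 2.41-fold difference resting on 15842 and 24074 reads. In limma this came to 1.31 ± 0.20 (log2 fold change and SE) with an adjusted p of 0.0264. Every limma fold change here is on the log2(value + 1) scale. Genes with low or uneven values can come out smaller or larger there than from counts. Pla2g12b was at -5.05 beside -7.34 in DESeq2, and Ptgds at -3.60 beside -2.70. Set against the mean log2 level of the 12 tuft markers, Ptgs1 lay at -0.54, -0.90 and -0.72 (Het) against 0.43, 0.42 and 0.28 (Ko), again with no overlap. The call was lost in edgeR (adjusted p = 0.0728), after scaling to the tuft markers (log2 fold change 1.10, limma adjusted p = 0.0560) and without Het2 (0.115), Het3 (0.148), Ko1 (0.0573), Ko2 (0.0606) or Ko3 (0.0888), and was kept without Het1 (0.0102). Across 19 alternatives its adjusted p lay between 2.08e-04 and 0.148 and its log2 fold change between 1.10 and 1.54.

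Ptgs2, the inducible cyclooxygenase-2, was at 544, 970 and 1551 (Het) against 1132, 1330 and 1735 (Ko). The groups overlapped, and Het1, highest of its group for Ptgs1, was lowest for Ptgs2. The difference was not called (0.56 ± 0.37, SE; 0.565 as limma's adjusted p). Hpgds encodes the hematopoietic prostaglandin D synthase, which makes prostaglandin D2. It was at 4765, 4301 and 4261 (Het) against 6609, 6508 and 7546 (Ko). These groups did not overlap and each was narrow, at 4442 ± 280 and 6888 ± 572 (SD, n = 3 each). The log2 fold change of 0.63 ± 0.14 (SE) missed the threshold in limma (adjusted p = 0.0860), while the authors' deposited table gives 0.63 with an adjusted p of 0.00182.

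The synthase genes of the other prostanoids overlapped between groups. Ptges, the inducible microsomal prostaglandin E synthase, was at 447, 259 and 444 (Het) against 601, 222 and 297 (Ko) (log2 fold change -0.13 ± 0.46, SE; limma adjusted p = 0.937). Its highest and lowest values were both in libraries labelled Ko. Tbxas1, the thromboxane synthase gene, was at 121, 27.7 and 49.1 (Het) against 85.4, 82.9 and 7.16 (Ko) (-0.52 ± 1.16, SE; 0.894). The lowest library, Ko3, lay far below the others labelled Ko, and the SD within either group (49.1 and 44.5) exceeded the difference of the means.

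In the 5-lipoxygenase arm, Alox5, encoding 5-lipoxygenase itself, was at 8893, 6736 and 4518 (Het) against 7454, 8241 and 8769 (Ko). Het1 was the highest of all 6 libraries and Het3 the lowest, so the libraries labelled Ko lay inside the range of those labelled Het. Its log2 fold change of 0.33 ± 0.22 (SE) was not called (limma adjusted p = 0.570). Alox5ap, encoding FLAP, which presents arachidonic acid to 5-lipoxygenase, was at 13558, 9428 and 9051 (Het) against 11519, 21994 and 17904 (Ko). The overlap came from Het1 and Ko1, and the difference did not pass the test (0.66 ± 0.24, SE; 0.256).

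Ltc4s encodes leukotriene C4 synthase, the branch to the cysteinyl leukotrienes. It was at 6489, 5988 and 5567 (Het) against 7202, 7307 and 8918 (Ko). The groups did not overlap but lay close together, and the log2 fold change of 0.37 ± 0.15 (SE) was not called (limma adjusted p = 0.305). A gene annotated on the opposite strand of Ltc4s, Gm26542, was at 328, 393 and 496 (Het) against 659, 639 and 888 (Ko). The strand setting of the authors' counting is not given in the sources used here, so reads of the pair cannot be told apart. Antisense partners of Ptgs1, Alox5ap and Tbxas1 reached at most 21.5, 119 and 1.43 normalized counts. Lta4h, the hydrolase of the other branch, to leukotriene B4, was at 660, 674 and 416 (Het) against 330, 559 and 457 (Ko), with overlap (-0.38 ± 0.36, SE; 0.710).

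Pla2g4a encodes the cytosolic phospholipase A2 that frees arachidonic acid for both arms. It was at 880, 2087 and 2378 (Het) against 2510, 3630 and 2961 (Ko). No library labelled Het reached the lowest labelled Ko, but Het1, at 880, was the lowest of its group by a wide margin, and the log2 fold change of 0.88 ± 0.35 (SE) was not called (limma adjusted p = 0.306). Pla2g4a and Ptgs2 lie beside each other on chromosome 1 with 0 protein-coding genes between them in RefSeq, and both had their lowest value in Het1. In Ptgs1, Hpgds, Alox5, Alox5ap and Ltc4s Het1 was instead the highest of the libraries labelled Het. The mean log2 level of the 12 tuft markers was also highest in Het1 within that group, at 12.87, with 12.54 in Het2 and 12.33 in Het3. The libraries labelled Ko had 12.73, 12.65 and 12.99. After scaling to this level the log2 fold change was 0.42 for Hpgds, 0.35 for Ptgs2, -0.34 for Ptges and -0.73 for Tbxas1. It was 0.12 for Alox5, 0.45 for Alox5ap, 0.16 for Ltc4s, -0.59 for Lta4h and 0.66 for Pla2g4a. Limma called 0 of the 10 genes there. Whether the level of the tuft markers causes these differences was not tested. Fewer cells of a type and less RNA per cell cannot be told apart in such bulk samples.

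**Figure D2:**
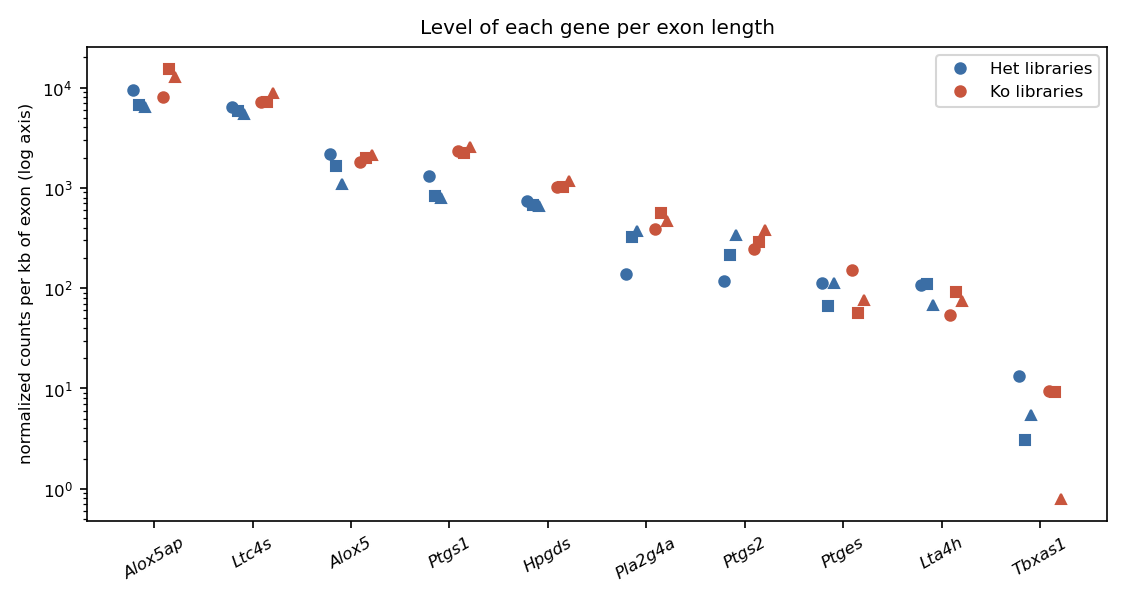
Normalized counts per kilobase of exon (y axis, log scale) for the 10 genes in order of their mean over 6 libraries; points are libraries labelled Het (blue) and Ko (red), with shapes for the column number. Alox5ap and Ltc4s lie highest and Tbxas1 lowest in both groups, and Ptgs1 passes Alox5 in the libraries labelled Ko.

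Levels of different genes were compared per kilobase of exon, with exon lengths from GENCODE M21. In libraries labelled Het the order of mean levels was Alox5ap (7520 normalized counts per kilobase), Ltc4s (5931), Alox5 (1636), Ptgs1 (982), Hpgds (691), Pla2g4a (279), Ptgs2 (223), Ptges (97.5), Lta4h (95.6) and Tbxas1 (7.26). The ranges of the 3 libraries overlapped between Alox5ap and Ltc4s, Alox5 and Ptgs1, Pla2g4a and Ptgs2, and Ptges and Lta4h. Leukotriene C4 synthase thus exceeded leukotriene A4 hydrolase, and the prostaglandin D synthase exceeded the prostaglandin E and thromboxane synthases, in every library. In the libraries labelled Ko the levels per kilobase were 12070 for Alox5ap, 7701 for Ltc4s, 2369 for Ptgs1, 1986 for Alox5, 1072 for Hpgds, 475 for Pla2g4a, 305 for Ptgs2, 94.9 for Ptges, 73.6 for Lta4h and 6.43 for Tbxas1. The ranges overlapped between Alox5ap and Ltc4s and between Ptges and Lta4h. The 1 change of order was that of Ptgs1, at 2210 to 2542 per kilobase, and Alox5, at 1815 to 2136, whose ranges no longer met. An exon length over all annotated transcripts overstates the length of genes with many isoforms, so values per kilobase are approximate.

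The arms were contrasted within each library by ratios of normalized counts. The size of such a ratio depends on the lengths of both genes, so only its difference between libraries is read here. Ptgs1 over Alox5 was 0.578, 0.474 and 0.687 (Het) against 1.23, 1.04 and 1.13 (Ko). Hpgds over Ltc4s was 0.734, 0.718 and 0.765 and then 0.918, 0.891 and 0.846. Neither ratio overlapped between the groups. Ptgs1 over Alox5ap was 0.379, 0.339 and 0.343 and then 0.794, 0.390 and 0.551, with Ko2 just above Het1. Each of these ratios has Ptgs1 or Hpgds on top, and both genes separated the groups on their own. The ratios are thus no separate result for the arms, and how often other gene pairs separate was not computed.

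The arms as wholes did not separate. The summed cyclooxygenase counts over the summed lipoxygenase counts were 0.372, 0.383 and 0.481 (Het) against 0.663, 0.439 and 0.540 (Ko), with Ko2 below Het3. The sum of the cyclooxygenase genes did not overlap, at 9727 ± 1164 in libraries labelled Het and 17921 ± 1396 in those labelled Ko, and that of the lipoxygenase genes did, at 23992 ± 5125 and 33551 ± 6188 (SD, n = 3 each). With each gene given equal weight, the mean log2 level of the cyclooxygenase genes minus that of the lipoxygenase genes was -2.34, -2.67 and -1.87 (Het) against -1.55, -2.29 and -2.67 (Ko). The difference of group means was 0.12, below the SD within either group (0.40 and 0.57), and it reversed to -0.06 without Het2 and to -0.18 without Ko1. Ptgs1 and Hpgds made up most of the summed cyclooxygenase counts, while Ptges and Tbxas1 weigh as much as they do in the mean of logs. The members were chosen with results of these data known, so no p is given for these scores.

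**Figure D3:**
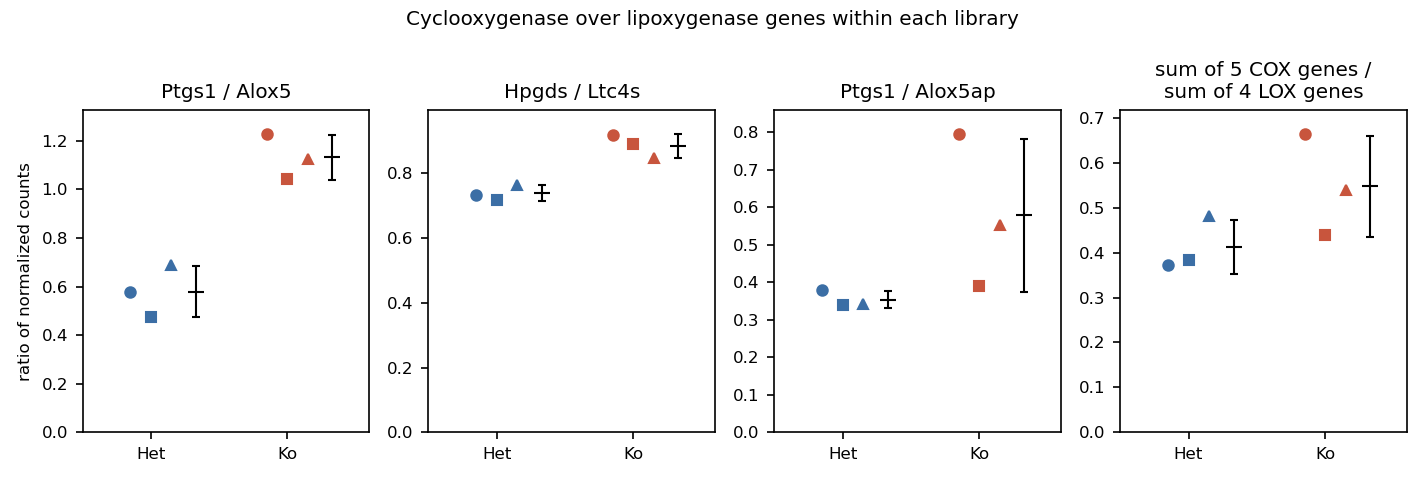
Ratio of normalized counts of cyclooxygenase to lipoxygenase genes within each library (y axes, from 0), for 3 gene pairs and for the arm sums (COX, the 5 cyclooxygenase genes; LOX, the 4 lipoxygenase genes); bars are the mean and SD of 3 libraries and shapes the column number. The first 3 ratios, each with Ptgs1 or Hpgds on top, do not overlap between libraries labelled Het (blue) and Ko (red). Both of those genes also separate on their own. The ratio of sums overlaps, with Ko2 at 0.439 below Het3 at 0.481.

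The genes most like Ptgs1 were sought among 13833 other genes with a mean of at least 50, by the root mean square distance of their centred log2 values over the 6 libraries. They were Zfp451 (distance 0.07; 342 and 779 normalized counts in the group means of libraries labelled Het and Ko), Socs3 (0.13; 967 and 2466) and 4930539E08Rik (0.13; 4115 and 10089). Those most like Alox5 were Nebl (0.08; 1329 and 1738), Rnf10 (0.09; 1355 and 1510) and Ago2 (0.09; 711 and 931). All of the latter, like Alox5, had their lowest value in Het3, which choosing by likeness over the same libraries favours.

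The rest of the pathway was read from 70 further genes in 7 lists, of which 57 passed the filter. Limma called 0 of them in either direction, with 13 at an unadjusted p under 0.05, as had 13.6% of all tested genes. edgeR called 0, with 12 at its unadjusted p under 0.05, as had 2725 of all 19416 tested genes. DESeq2 on the recovered reads called Hpgd higher and Alox12e, Alox15, Pla2g12b and Ptgr1 lower. Over all genes it called 3.09% higher and 5.28% lower. The median log2 fold change of the 57 was -0.78 in limma, with 19 positive and 38 negative. It was -0.05 over all genes tested and 0.46 for the 10 synthesis genes. The groups did not overlap in 4 genes that were higher and 10 that were lower, where 8.57% and 9.86% of all tested genes did so.

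Both genes nearest to the threshold act in prostaglandin breakdown, and they went opposite ways. Hpgd, the dehydrogenase that starts the breakdown of prostaglandins, was at 1506, 1269 and 1189 (Het) against 2611, 3222 and 2422 (Ko) (log2 fold change 1.05 ± 0.21, SE; limma adjusted p = 0.0514). Ptgr1, a reductase that acts on the products of Hpgd and also inactivates leukotriene B4, was at 295, 443 and 750 (Het) against 51.4, 74.6 and 22.9 (Ko) (-3.34 ± 0.65, SE; 0.0504). Neither gene overlapped between groups. In the authors' deposited table their adjusted p-values are 9.26e-05 and 1.58e-06. Hpgd thus stood higher in the same libraries as Hpgds, and the ratio of Hpgds to Hpgd was 3.38 ± 0.21 in libraries labelled Het and 2.56 ± 0.55 in those labelled Ko (SD, n = 3 each). Fold changes of the 7 tested genes of export and breakdown were positive in 2 and negative in 5.

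None of the other lipoxygenases passed limma, though some did not overlap between groups, unlike Alox5. Alox12e, the epidermal type of arachidonate lipoxygenase, was at 1924, 2669 and 1501 (Het) against 268, 585 and 996 (Ko) (-1.87 ± 0.44, SE; limma adjusted p = 0.0947). Alox15 was at 427, 816 and 633 and then at 163, 233 and 339 (-1.36 ± 0.42, SE; 0.184). In both the groups did not overlap, and the authors' deposited table gives adjusted p-values of 0.0148 and 0.0232. Of the 6 tested genes in that list 2 were positive and 4 negative.

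Among the further prostanoid synthases, 1 of 9 had a positive fold change. Ptgds, the lipocalin-type prostaglandin D synthase, was at 383, 1052 and 1542 (Het) against 6.17, 281 and 170 (Ko), the opposite direction to Hpgds, though the difference missed the threshold (-3.60 ± 1.19, SE; limma adjusted p = 0.214). Akr1c18, a reductase of the aldo-keto family, was at 76.1, 269 and 818 and then at 2.06, 83.9 and 2.86, with overlap at Ko2 (0.173). Of 16 tested phospholipase A2 genes, 5 were positive and 11 negative. Pla2g12b, whose product lacks catalytic activity, had 231 reads in libraries labelled Het and 1 in those labelled Ko (limma adjusted p = 0.178), and the secreted enzyme gene Pla2g2f was at 25.2, 55.4 and 69.3 and then at 16.5, 1.04 and 4.30 (0.341).

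**Figure D4:**
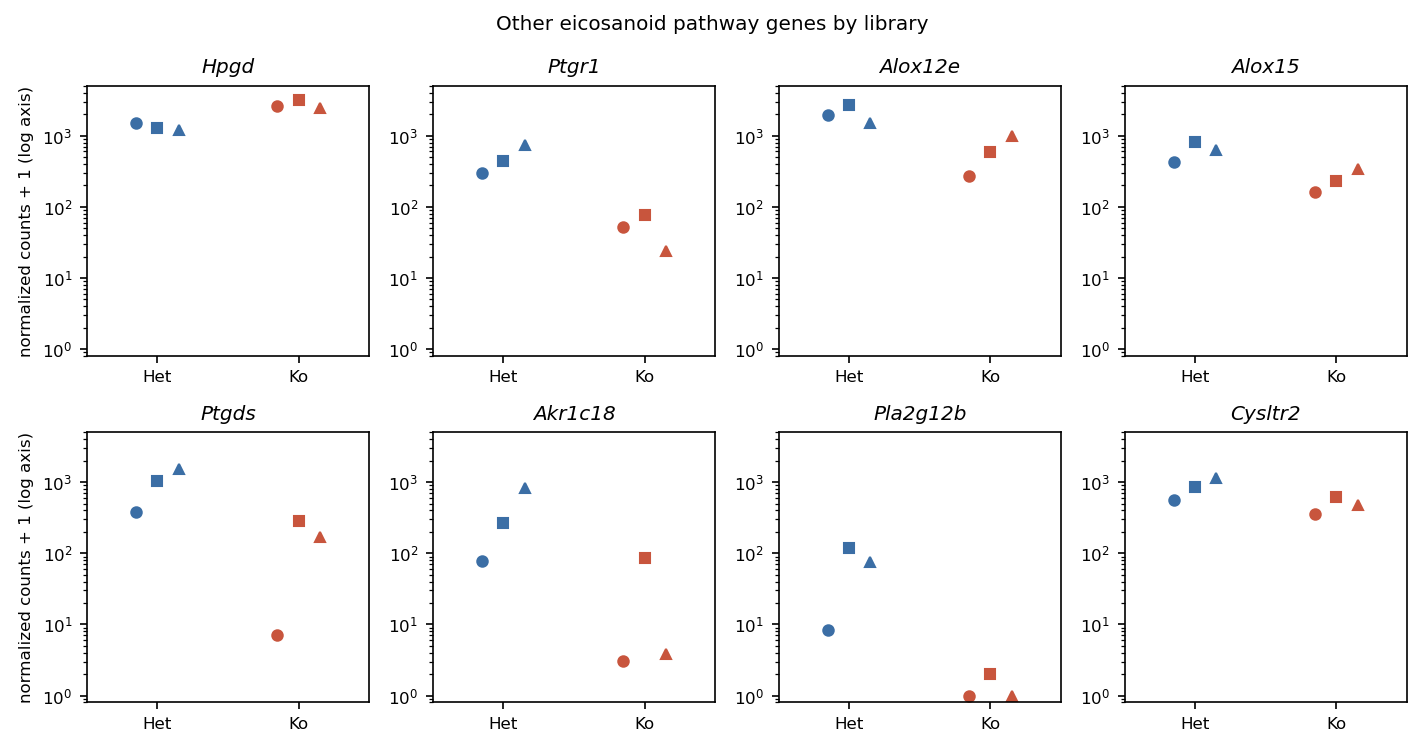
Normalized counts plus 1 (y axis, log scale) of 8 other pathway genes in libraries labelled Het (blue) and Ko (red), with shapes for the column number. Hpgd lies higher in all 3 libraries labelled Ko, and Ptgr1, Alox12e, Alox15, Ptgds and Pla2g12b lie lower in all 3.

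Receptors for eicosanoids were scarce: of 14 genes, 6 passed the filter, positive in fold change for 1 and negative for 5. Cysltr2, a receptor of cysteinyl leukotrienes, was at 554, 848 and 1157 (Het) against 360, 609 and 484 (Ko) (-0.78 ± 0.36, SE; limma adjusted p = 0.380). Ptgdr, a prostaglandin D2 receptor, was at 279, 56.1 and 104 in libraries labelled Het and was read in only 1 of the 3 labelled Ko, at 77.7 in Ko2 (0.262). In leukotriene conversion, Mgst3, a glutathione transferase related to Ltc4s, was at 8081 ± 1540 and 9609 ± 1228 (SD, n = 3 each; 0.569), and Ggt1, which converts leukotriene C4, at 15.6 ± 18.8 and 45.4 ± 11.9 (0.501). In arachidonate handling, the acyltransferase gene Lpcat3 was at 334 ± 97.2 and 479 ± 13.9 (0.548), and the desaturase gene Fads2 had 85 reads in libraries labelled Het and 3 in those labelled Ko (limma adjusted p = 0.451).

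**Figure D5:**
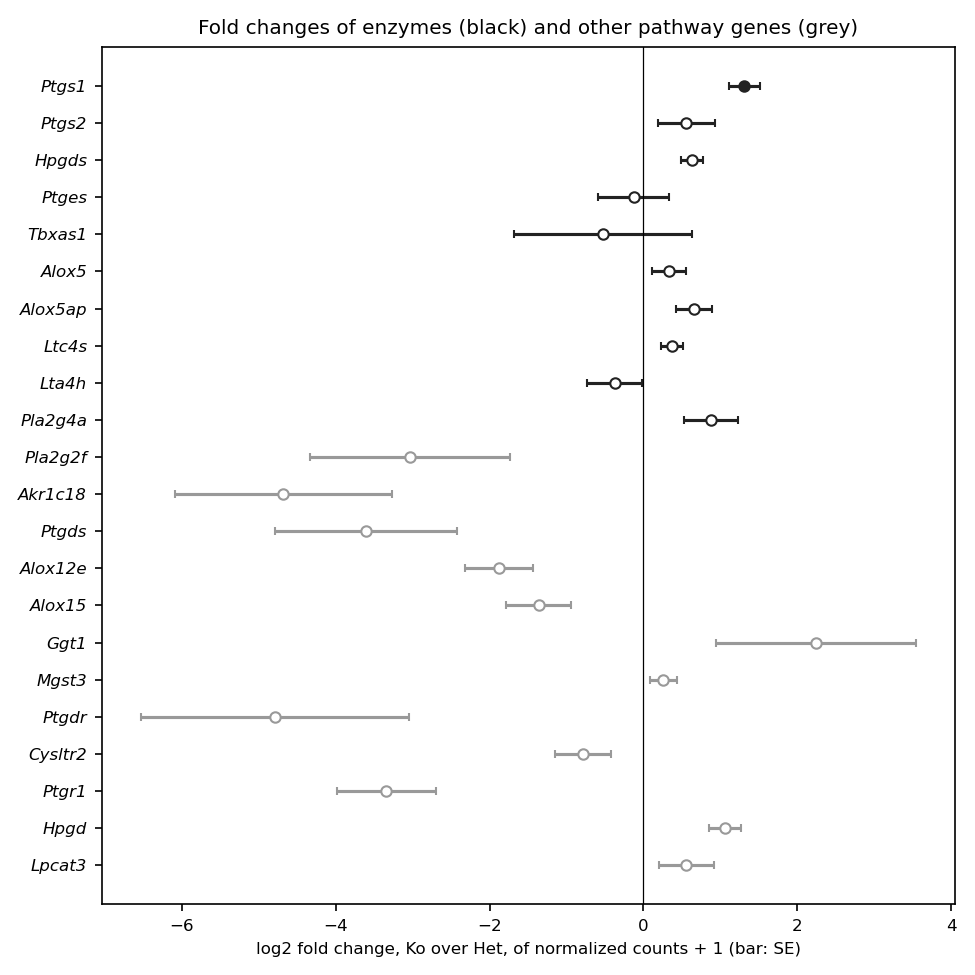
Log2 fold change (x axis, libraries labelled Ko over Het, on normalized counts plus 1) with its SE for the 10 enzymes (black) and the named pathway genes with more than 3 reads in each group (grey); the filled point passed limma at an adjusted p under 0.05. Ptgs1, at 1.31, is the only filled point.

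Several enzymes of this pathway are also abundant in mast cells, macrophages, granulocytes and platelets, so their markers were read in the same libraries. Of 9 mast cell and basophil markers 5 passed the filter, with summed normalized counts of 436 to 2299 in libraries labelled Het and 79.8 to 552 in those labelled Ko. In libraries labelled Het the sum was led by Hdc, which tuft cells can also express, and the receptor gene Fcer1a had at most 1 read in a library. Fold changes were negative in 4 of the 5 and positive in 1, with a median of -2.88. Cpa3 had 242 reads in libraries labelled Het and 1 in those labelled Ko, Mcpt8 161 and 0, and Cma1 143 and 226. All 3 overlapped and were not called by limma. In the authors' deposited table the adjusted p is 0.00292 for Hdc, 0.0257 for Cpa3 and 0.932 for Cma1, and blank for Mcpt8. Of 10 neutrophil and eosinophil markers 7 passed, with sums of 1336 to 7082 and 386 to 737, and 6 of the 7 had a negative fold change. S100a9 was called lower in the libraries labelled Ko (log2 fold change -6.60 ± 1.03, SE; limma adjusted p = 0.0272). S100a8 (9386 and 264 reads in libraries labelled Het and Ko), Ly6g (1407 and 3) and Prg2 (1759 and 48) did not overlap and were not called by limma. Their adjusted p-values in the authors' deposited table are 0.0754, 1.37e-06 and 0.00945. Siglecf was the 1 positive gene, at 239, 109 and 185 (Het) against 293, 459 and 511 (Ko), and led the sum in each library labelled Ko. The part of these markers in the lower values of Alox15 and the other genes that lay lower was not tested. The sums of macrophage markers (7 of 9; 674 to 1541 and 363 to 1160) and platelet markers (5 of 7; 244 to 1079 and 298 to 720) overlapped. Fold changes were negative in 6 of 7 tested macrophage markers and 3 of 5 tested platelet markers. Adgre1 (320 and 6 reads in libraries labelled Het and Ko) and Ppbp (255 and 0) did not overlap and were not called by limma. The authors' deposited table gives them adjusted p-values of 0.00653 and 0.00239. In each of the 4 lists of mast cells, granulocytes, macrophages and platelets the highest sum was in a library labelled Het. The part of these 4 lists in the levels of the enzyme genes was not tested. The sums of lymphocyte markers were higher in the libraries labelled Ko, each through 1 gene. Of 7 B cell markers 5 passed, with sums of 2748 to 3941 and 5496 to 6569. Cd79b was called higher (1.12 ± 0.20, SE; limma adjusted p = 0.0433), but 3 of the 5 had a negative fold change, the median was -1.05, and Ms4a1 was under the filter. Of 10 thymocyte markers 5 passed, with sums of 104 to 407 and 523 to 1183, and 0 were called by limma. Themis was at 8.39, 58.9 and 79.4 (Het) against 434, 379 and 908 (Ko), while Lck had means of 161 and 76.9, and Rag1 and Cd8a were under the filter. The authors' deposited table gives an adjusted p of 2.79e-04 for Themis and 0.666 for Lck. The part of these lists in the higher values of Ptgs1, Hpgds and Hpgd was not tested. Fibroblast and endothelial markers (8 of 8) summed to 1176 to 1454 and 1114 to 11024, with 5 positive and 3 negative fold changes. Dcn, at 9169 in Ko2, led the highest sum. Cdh5 (57 and 280 reads in libraries labelled Het and Ko) did not overlap. Neither was called by limma, and their adjusted p-values in the authors' deposited table are 0.0358 and 0.00488. The part of this list in the higher values of Ptgs1, Hpgds and Hpgd was not tested either. Dendritic cell markers (2 of 7) summed to 232 to 359 and 184 to 345. Genes of the Aire stage of medullary epithelium (8 of 9) summed to 32258 to 94156 in libraries labelled Het and 20766 to 31722 in those labelled Ko, all 8 with a negative fold change and Ctsz called lower; their part in the lower values of Alox12e, Alox15, Ptgds and Ptgr1 was not tested.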

How the data were processed

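The authors deposited a signal in normalized counts, each library scaled by its own size factor, and a comparison table with a log2 fold change, its SE, a Wald score and p-values, per the file headers. Per the submitters' processing notes they used STAR 2.7.9a, GRCm39 and DESeq2; for the counter, annotation, strand and filters nothing is given there. Adjusted p-values that are blank (NA) there were kept so. Columns could be tied to groups but not to single samples.

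Values of each column were whole multiples of 1 step (within 0.01 reads for 100% of values above 0), which gave the reads used for totals, edgeR 4.0.16 and DESeq2 1.42.0. Counts of libraries in a group differed by more than sampling noise (chi-square per degree of freedom 56.9 to 134). limma 3.58.1 (R 4.3.3; two-sided, mean-variance trend, genotype only) took log2(value + 1) wherever the mean reached 10. The script was tested on simulated data. Symbols of 55144 of 55471 genes came from a name table; 1 listed gene, Ptgr3, was not matched. The members, lists and tests were chosen with earlier results of these data known; in each further list the called genes or else the 2 with the smallest p are named. Alternatives were other pseudocounts, filters and scalings, both count tests, a block by column number and leaving out each library; scaling to tuft markers and TMM factors from every gene were added after seeing the data.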

Additional observations from a re-analysis of the deposited data

How the results depend on the processing

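Over all genes, limma's 158 calls became 1626 with DESeq2, 75 with edgeR, 87 with a replicate block by column number, 78 after scaling to tuft markers and 0 (without Het3) to 116 (without Ko1) without single libraries. Among the 10 enzyme genes the 1 call became 2 with DESeq2, 0 with edgeR, 0 after scaling to tuft markers and 0 or 1 without single libraries, and Ptgs1 was kept under the block. Among the other pathway genes the 0 calls became 5 with DESeq2, 1 with equal totals (Hpgd), 2 with a mean of at least 50 and with pseudocounts of 5 or 20 (Hpgd and Ptgr1 each time), 1 with TMM factors from every gene (Ptgr1), and stayed at 0 without any single library. The cause of these shifts was not tested. The contrast of the arms ran from -0.18 to 0.37 without single libraries, and was 0.40 from sums of counts. Without single libraries Ptges ran from -0.54 to 0.18, reversing to 0.005, 0.001 and 0.18 without Het1, Het3 and Ko2, and Tbxas1 from -1.10 to 0.60, reversing to 0.04 and 0.60 without Het1 and Ko3. No other enzyme or pathway gene described reversed; the genes most like Ptgs1 and Alox5 and the cell markers were not rerun singly. The median log2 fold change of all genes, -0.05, was 0.08 after quantile normalization, -0.13 with TMM factors from every gene and -0.26 after scaling to tuft markers. Same-numbered columns did not deviate together (r = 0.05, 0.04 and -0.02), so the numbers were not read as pairs. The least deep libraries, Het3 and Ko3, set the floor: 3 reads there are 4.33 and 4.30 normalized counts, under every value of the 10 genes.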
